A study of Mus musculus with 16 samples.

Results

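The genes of the adipogenic lineage were examined in immortalised mouse embryonic fibroblasts (MEFs), cells of the embryonic connective tissue that are often used to follow the first steps of fat cell formation. They were 10 genes chosen by name out of the 54453 in the expression table, namely the transcription factors Pparg, Cebpa, Cebpb and Cebpd, the fatty acid binding proteins Fabp4 and Fabp5, the lipase Lpl, the lipid droplet protein Plin2, the fatty acid transporter Cd36 and the hormone Adipoq. Total RNA was sequenced from 16 lines, with 1 library per line. The parental lines MEF-1 (male) and MEF-2 (female) came from sibling C57BL/6J embryos at E13.5 and were immortalised by serial passaging through crisis. From each parental line 7 clonal lines had been grown out of single sorted cells. No line carried a targeted allele or received a treatment, and all were grown in serum-containing medium without agents that induce fat cell formation. Embryo, sex and immortalisation event cannot be told apart between the sets, and p-values measure the spread between clones of 1 embryo each.

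Fat cell formation is usually described as a cascade. Cebpb and Cebpd are early regulators that respond to inducing hormones, and they are followed by Pparg and Cebpa, which activate each other and the genes of the fat cell. Among the targets of PPARγ, the protein of Pparg, are Fabp4, Lpl, Cd36, Plin2 and Adipoq, whereas Fabp5 is a fatty acid binding protein of many tissues. Fibroblasts hold some of these transcripts without being fat cells.

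All values are regularised log (rlog) levels on a log2 scale, in which each line is drawn towards the average of the gene, so that a difference of 1 stands for about 2-fold and differences of low genes are understated. Levels of the 10 genes were set beside those of other genes per length, as the average rlog of all 16 lines minus the log2 of the length in kb of the longest coding transcript. They were ranked among the 18183 protein-coding genes that are not listed at exactly 0 in every line. On that scale Fabp5 stood at 11.4 and Plin2 at 11.2, above 89.6% and 88.1% of these genes. Cebpb at 10.1, Cebpd at 9.72 and Fabp4 at 7.98 lay above 73.8%, 68.4% and 48.4%. Pparg at 6.19 and Cebpa at 4.81 lay above 39.5% and 35.2%, and Lpl at 1.01 above 23.5%. Cd36 and Adipoq, at -3.50 and -2.47, lay above 3.89% and 9.75%. Before length was taken away their averages were -1.74 and -2.10, in the opposite order and near the lowest average of any gene (-2.28). Their ranks therefore depend on length. A further 3689 protein-coding genes are listed at exactly 0 in all 16 lines and were left out of this ranking, since the value 0 lies above those of genes with very low levels.

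**Figure D1:**
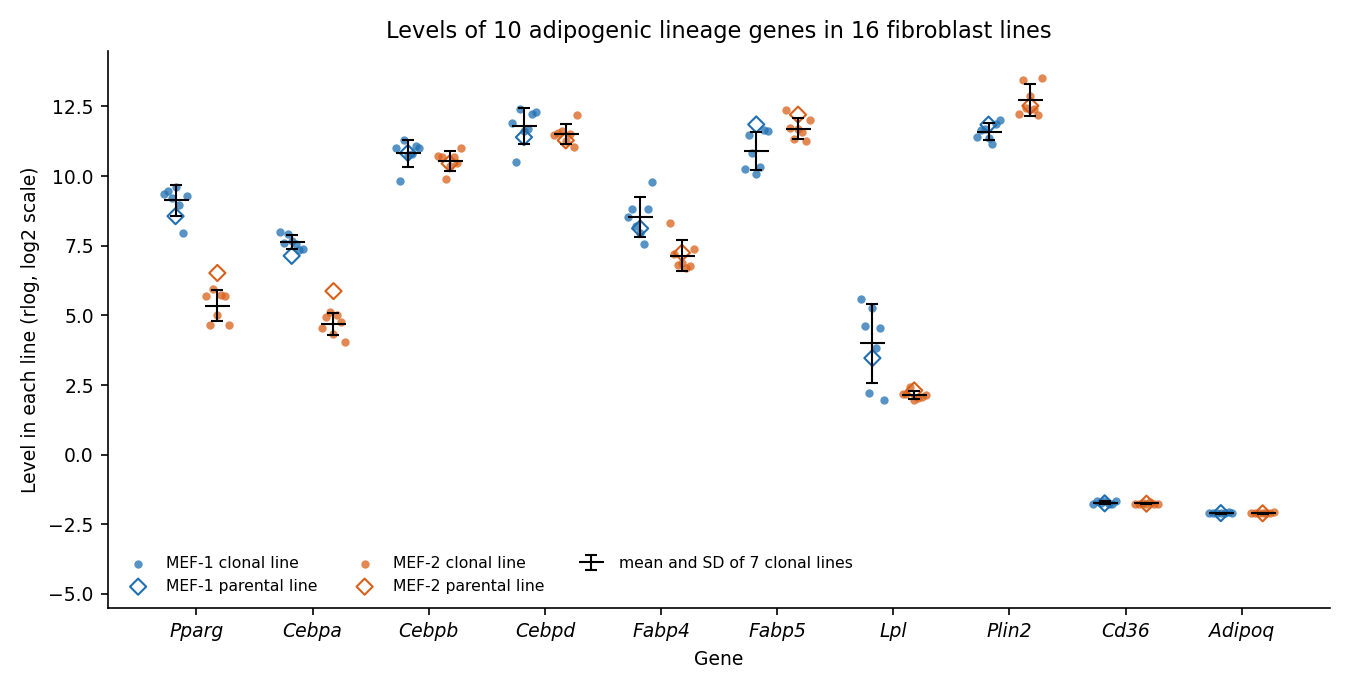
Level of each gene (rlog, log2 scale) in every line, with clonal lines as dots, parental lines as diamonds, and the mean and SD of the 7 clonal lines of each set in black. Pparg and Cebpa were higher in all MEF-1 clonal lines than in all MEF-2 clonal lines, Plin2 was lower, and Cd36 and Adipoq lay below 0 in all 16 lines.

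The sets of clonal lines were compared with limma across 15285 protein-coding genes with an average above 0, which left out Cd36 and Adipoq. Of the 8 adipogenic genes tested, Pparg, Cebpa, Fabp4 and Lpl were higher in MEF-1 and Fabp5 and Plin2 were higher in MEF-2, while Cebpb and Cebpd did not pass (Benjamini-Hochberg adjusted p under 0.05). That made 6 of 8, beside 56.1% of all genes tested, so a call between these sets was common. Genes called higher in MEF-1 were 28.6% and genes called higher in MEF-2 27.5% of those tested. A called difference of 1 or more was less common, at 7.87% of all genes higher in MEF-1, as for Pparg, Cebpa, Fabp4 and Lpl, and 5% higher in MEF-2, as for Plin2, or 12.9% in all. The values of the sets did not overlap for Pparg, Cebpa and Plin2, as for 25.9% of all genes tested.

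Pparg (chr6:115360951-115490399 of GRCm38/mm10, plus strand) encodes the nuclear receptor that directs fat cell formation. The MEF-1 clonal lines ranged from 7.96 in line 6 to 9.60 in line 4, with a median of 9.28. The MEF-2 clonal lines ranged from 4.64 in line 2 to 5.95 in line 3, with a median of 5.69. Every MEF-1 clone thus lay above every MEF-2 clone, and the parental lines, at 8.56 and 6.52, kept the same order. MEF-1 clones averaged 9.12 ± 0.55 and MEF-2 clones 5.35 ± 0.55 (SD, n = 7 each). MEF-2 was lower by a difference of -3.78 (SE 0.28, 95% interval -4.37 to -3.19, adjusted p = 4.02e-08), or 13.7-fold. This difference was larger than that of 99.3% of the genes tested.

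Pparg has several start sites, and RefSeq holds promoter windows for 3 of them on GRCm38.p6. The table holds 1 value per gene and line, so that it does not tell which start was used. The bases are shown from 250 before each start up to the first base of any annotated exon, with CpG dinucleotides, the sites of DNA methylation, in capitals, since the windows differed in their number. Window 1 lies at chr6:115360894-115360950, window 2 at chr6:115362099-115362291 and window 3, which precedes the start of the fat cell isoform PPARγ2, at chr6:115421816-115422065, all on the plus strand.
Pparg window 1: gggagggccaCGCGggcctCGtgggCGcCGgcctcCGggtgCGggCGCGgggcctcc
Pparg window 2: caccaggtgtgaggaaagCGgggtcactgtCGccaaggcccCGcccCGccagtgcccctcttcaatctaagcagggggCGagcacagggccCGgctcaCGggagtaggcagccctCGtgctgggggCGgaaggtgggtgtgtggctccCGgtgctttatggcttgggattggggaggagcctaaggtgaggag
Pparg window 3: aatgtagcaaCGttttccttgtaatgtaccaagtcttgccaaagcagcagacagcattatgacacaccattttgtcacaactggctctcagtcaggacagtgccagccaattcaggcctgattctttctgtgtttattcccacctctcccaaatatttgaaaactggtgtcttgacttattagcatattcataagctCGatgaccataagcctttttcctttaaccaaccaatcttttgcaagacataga

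Over the whole windows, from 250 bases before to 50 bases after the start, window 1 held 44 CpGs, window 2 held 13 and window 3 held 2. Among 32851 RefSeq promoter windows of the same length the median was 7 CpGs, and 97.8%, 62.1% and 14.1% of them had fewer than the windows of Pparg in that order. The letters TTNNGNAA, a loose form of the C/EBP motif, were found in window 3 on both strands. The match that begins 16 bases before the start reads on the printed strand. The match that begins 215 bases before the start is on the opposite strand, so that the printed bases there are ttgccaaa. Of all windows, 40.7% held these letters on either strand. Methylation was not analysed here.

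Cebpa (chr7:35119293-35121928, plus strand) encodes C/EBPα, the partner of PPARγ in the differentiated fat cell. MEF-1 clonal lines lay between 7.35 in line 6 and 8.00 in line 1, with a median of 7.61. MEF-2 clonal lines lay between 4.03 in line 7 and 5.11 in line 3, with a median of 4.76. The sets were again fully apart, with the parental lines at 7.14 and 5.87 between them. Their means of 7.64 ± 0.25 and 4.68 ± 0.40 (SD, n = 7 each) differed by -2.96 (MEF-2 minus MEF-1, SE 0.18, 95% interval -3.35 to -2.58, adjusted p = 5.26e-09), or 7.81-fold. The bases before its start, chr7:35119043-35119292, are given beside those before the start of Adipoq, chr16:23146286-23146535, as a CpG-rich and a CpG-free promoter of the group, with CpGs in capitals.
Cebpa: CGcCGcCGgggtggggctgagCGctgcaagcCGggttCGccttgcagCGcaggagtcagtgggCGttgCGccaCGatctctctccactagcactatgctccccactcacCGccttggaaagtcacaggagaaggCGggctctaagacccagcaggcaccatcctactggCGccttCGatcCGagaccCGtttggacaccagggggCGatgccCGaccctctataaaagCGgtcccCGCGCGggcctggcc
Adipoq: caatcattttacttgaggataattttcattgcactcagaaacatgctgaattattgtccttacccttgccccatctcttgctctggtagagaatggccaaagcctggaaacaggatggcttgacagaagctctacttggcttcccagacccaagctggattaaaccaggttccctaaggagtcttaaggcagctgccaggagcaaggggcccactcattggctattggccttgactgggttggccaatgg

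The full window of Cebpa held 29 CpGs, more than 87.1% of all windows, and that of Adipoq held 0. A TATAAA began 30 bases before the start of Cebpa, 29 bases before the second start of Pparg and 21 bases after the start of Cebpb. This motif was found in 13.6% of all windows on either strand. The last 57 bases before the second start of Pparg were not printed above, as an annotated exon begins there, and they hold its TATAAA. The other members with a window were Cebpb with 50 CpGs, Plin2 with 10 and Cd36 with 3, while Cebpd, Fabp4, Fabp5 and Lpl had no entry in the table. The consensus PPAR response element, a direct repeat bound by PPARγ with its partner RXR, was in none of the 8 windows of the group and in 0.0396% of all windows on either strand.

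Cebpb (chr2:167688915-167690418, plus strand) and Cebpd (chr16:15887286-15891031, plus strand) encode the early C/EBP factors. Cebpb ranged from 9.81 in line 2 to 11.29 in line 3 among MEF-1 clones, with a median of 10.99, and from 9.90 in line 3 to 11.00 in line 7 among MEF-2 clones, with a median of 10.67. The parental lines stood at 10.83 and 10.46, inside both ranges. The means of 10.82 ± 0.48 and 10.54 ± 0.35 (SD, n = 7 each) differed by -0.28 (SE 0.20, 95% interval -0.71 to 0.16, limma adjusted p = 0.266).

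Cebpd ranged from 10.50 in line 2 to 12.42 in line 3 of MEF-1, with a median of 11.91, and from 11.03 in line 6 to 12.20 in line 7 of MEF-2, with a median of 11.50. The parental lines had 11.40 and 11.28. Means of 11.81 ± 0.65 and 11.52 ± 0.36 (SD, n = 7 each) differed by -0.29 (SE 0.26, 95% interval -0.83 to 0.26, limma adjusted p = 0.358). MEF-1 line 2 had the lowest value of its set for both genes and decided both results. Without it Cebpb differed by -0.44 (adjusted p = 0.0215) and Cebpd by -0.50 (adjusted p = 0.0274), both higher in MEF-1.

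**Figure D2:**
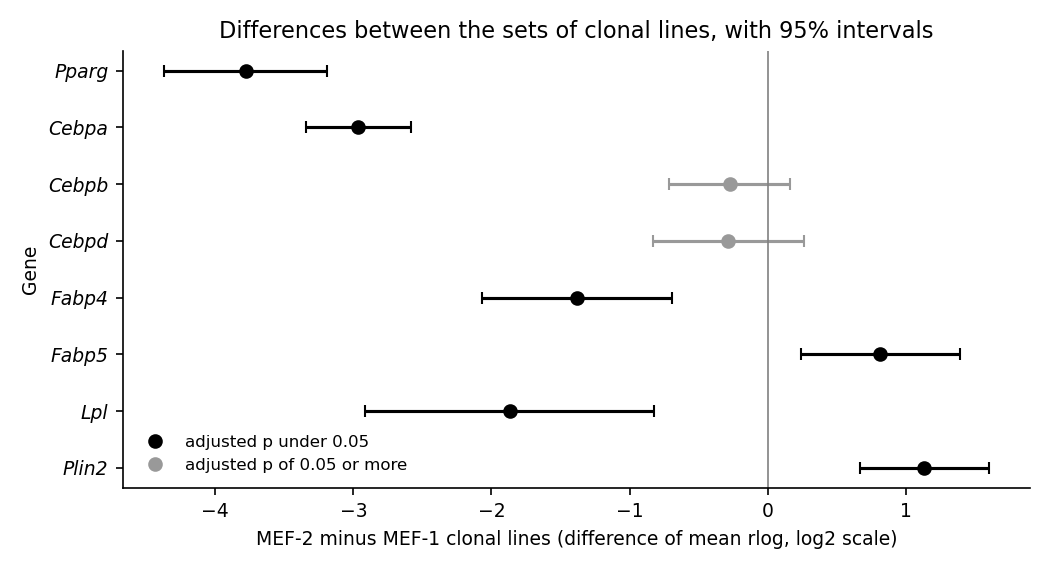
Difference of the mean rlog (MEF-2 minus MEF-1 clonal lines, log2 scale) with its 95% interval from limma for the 8 genes tested, in black where the adjusted p was under 0.05. Pparg, at -3.78, and Cebpa, at -2.96, lay furthest from 0, and the intervals of Cebpb and Cebpd included 0.

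Fabp4 (chr3:10204088-10208576, minus strand) encodes the fatty acid binding protein that is abundant in fat cells and also made by macrophages and capillary endothelium. Its levels ran from 7.55 in line 5 to 9.78 in line 7 of MEF-1, with a median of 8.55, and from 6.70 in line 5 to 8.30 in line 1 of MEF-2, with a median of 6.87. The sets overlapped, with 4 of 7 MEF-1 clones above the highest MEF-2 clone, and the parental lines stood at 8.12 and 7.25. The means, 8.53 ± 0.73 and 7.15 ± 0.57 (SD, n = 7 each), differed by -1.38 (SE 0.32, adjusted p = 0.00204), or 2.60-fold.

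Fabp5 (chr3:10012548-10016607, plus strand) encodes the fatty acid binding protein of epidermis and many other tissues. It ran from 10.09 in line 4 to 11.66 in line 6 of MEF-1, with a median of 10.83, and from 11.25 in line 6 to 12.37 in line 1 of MEF-2, with a median of 11.71. Here 4 of 7 MEF-2 clones lay above the highest MEF-1 clone, and the parental lines were high in both sets, at 11.85 and 12.21. The means of 10.89 ± 0.69 and 11.71 ± 0.38 (SD, n = 7 each) differed by 0.81 (SE 0.27, adjusted p = 0.0187), or 1.76-fold, in the direction opposite to that of Fabp4.

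Fabp4 and Fabp5 lie 187480 bases apart within 1 cluster of fatty acid binding protein genes. The level of Fabp4 minus that of Fabp5, taken within each line, ran from -2.83 to -1.71 in MEF-1 clones (mean -2.37 ± 0.47, SD, n = 7) and from -4.87 to -4.06 in MEF-2 clones (mean -4.56 ± 0.27, SD, n = 7). The sets did not overlap, and the difference of -2.20 had p = 0.000583 in a two-sided exact permutation test, the smallest p that 7 against 7 lines allow. This contrast was not among the planned tests. It joins the opposite differences of Fabp4 and Fabp5 given above, so it is no independent result. The share of other gene pairs without overlap was not computed. The parental lines, at -3.73 and -4.96, stood in the same order, and the MEF-1 parental line lay below all of its clones. Between both genes lie Pmp2, which encodes the fatty acid binding protein of myelin, and Fabp9. Pmp2 was higher in MEF-2 by 2.17 (SE 0.28, adjusted p = 1.43e-05), with means of 3.82 ± 0.49 and 5.99 ± 0.62 (SD, n = 7 each). Fabp9 and the outer neighbour Fabp12 had averages of -2.28 in each set, the lowest average of any gene in the table.

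Lpl (chr8:68880491-68907448, plus strand) encodes lipoprotein lipase, which releases fatty acids from circulating lipoproteins. The MEF-1 clones ran from 1.98 in line 7 and 2.22 in line 3 to 5.57 in line 1, with a median of 4.56. The MEF-2 clones were all low, from 1.96 in line 4 to 2.42 in line 3, with a median of 2.12. Lines 3 and 7 of MEF-1 thus lay within the range of MEF-2 and the other 5 above it, and the parental lines stood at 3.47 and 2.30. The means of 4.00 ± 1.42 and 2.14 ± 0.15 (SD, n = 7 each) differed by -1.87 (SE 0.49, adjusted p = 0.00474), or 3.65-fold. As RNA came from whole cultures, fewer cells that make a transcript and less of it per cell cannot be told apart, here or for the other genes.

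Plin2 (chr4:86648386-86670060, minus strand) encodes the coat protein of lipid droplets in nearly all cells. MEF-1 clones ran from 11.17 in line 5 to 12.02 in line 7, with a median of 11.67, and MEF-2 clones from 12.19 in line 6 to 13.52 in line 7, with a median of 12.43. The sets did not overlap, and the parental lines had 11.85 and 12.52. The means of 11.60 ± 0.31 and 12.73 ± 0.56 (SD, n = 7 each) differed by 1.13 (SE 0.22, adjusted p = 0.000503), or 2.19-fold. Plin2 was therefore the lipid droplet gene of the group that was higher where Pparg and Cebpa were lower.

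Cd36 (chr5:17781690-17888801, minus strand), which encodes a fatty acid transporter of fat cells, muscle and macrophages, had -1.77 to -1.68 in all lines. Only 4 lines, MEF-1 clones 2, 4 and 7 and MEF-2 clone 5, were more than 0.04 above the lowest line. Adipoq (chr16:23146536-23158028, plus strand), which encodes adiponectin, the hormone made by fat cells, had -2.11 to -2.06, with MEF-1 clone 6 and MEF-2 clone 7 more than 0.04 above the lowest. In a fit without the filter on low values, the sets differed by -0.023 for Cd36 (adjusted p = 0.344) and by -0.00023 for Adipoq (adjusted p = 0.989). The number of reads is unknown, so that absence and a few reads were not told apart. Lep and Cfd, which encode the secreted fat cell proteins leptin and adipsin, also had averages below 0.

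The clones of 1 parental line also differed among themselves. In MEF-1 the SD of Lpl, 1.42, was larger than that of 98.6% of the tested genes in its expression group (5 groups by average level). The SDs of Fabp5 (0.69), Cebpd (0.65) and Cebpb (0.48) were larger than those of 98.1%, 97.8% and 93.4% of their group, whereas Cebpa, with an SD of 0.25, exceeded only 35.3%. In MEF-2 Plin2 (0.56) and Fabp5 (0.38) stood above 97.7% and 92.7% of their groups, and Lpl (0.15) above 20.7%. As each line had 1 library, spread from culture and from library preparation is included in these SDs.

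**Figure D3:**
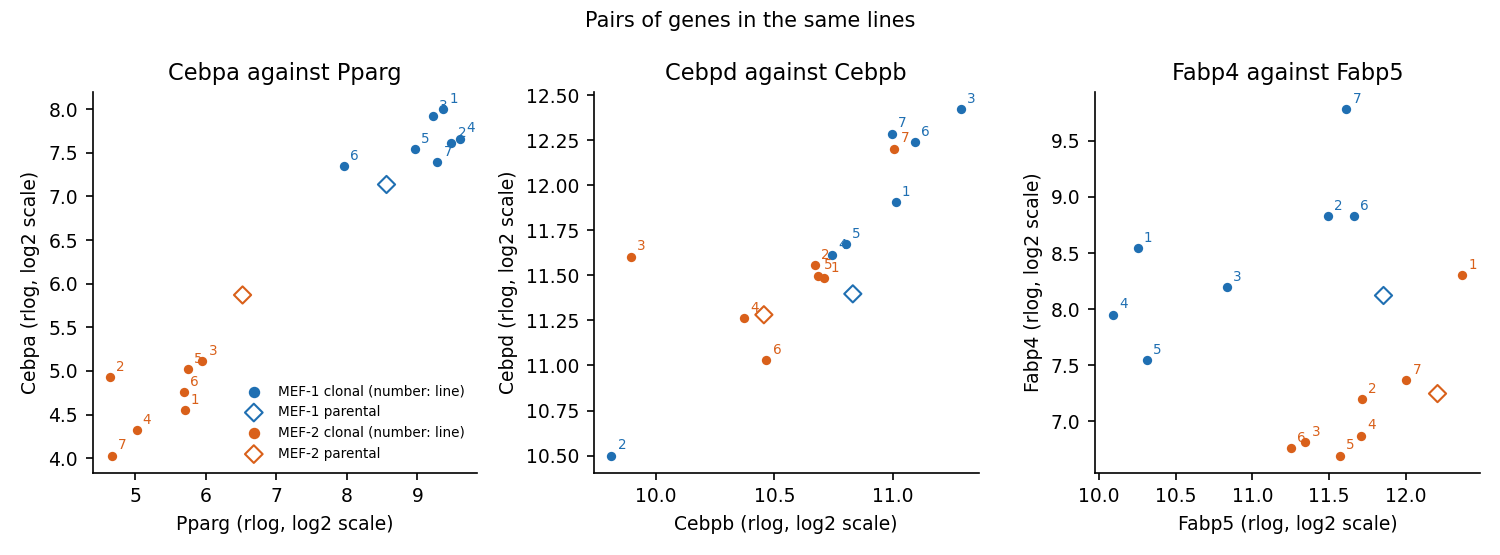
Levels (rlog, log2 scale) of Cebpa against Pparg, Cebpd against Cebpb and Fabp4 against Fabp5 in the same lines, with clonal lines as numbered dots and parental lines as diamonds. Pparg and Cebpa separated the sets, Cebpb and Cebpd were both lowest in MEF-1 line 2, and Fabp4 minus Fabp5 was lower in every MEF-2 line than in every MEF-1 line.

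Relations between genes across the 7 clones of a set were tested with exact permutation tests (two-sided). None of 18 relations of Pparg with the other members passed after adjustment. The lowest p was that of Pparg with Plin2 in MEF-2, with Pearson's r = -0.948 (exact permutation p = 0.00952, adjusted p = 0.171) and Spearman's rho = -0.607 (permutation p = 0.167, adjusted p = 0.530). MEF-2 lines 2 and 7, the lowest for Pparg at 4.64 and 4.67, were the highest for Plin2 at 13.44 and 13.52. Without the pair of lines farthest from the median r was -0.800. In MEF-1 Pparg and Plin2 had r = -0.330 (exact permutation p = 0.523, adjusted p = 0.6755) and r = 0.511 without the 2 farthest lines. Pparg and Cebpa had r = 0.578 in MEF-2 (exact permutation p = 0.177, adjusted p = 0.576) and rho = 0.607 (permutation p = 0.167, adjusted p = 0.530), with r = 0.855 without the 2 farthest lines. In MEF-1 they had r = 0.525 (exact permutation p = 0.243, adjusted p = 0.576) and rho = 0.536 (permutation p = 0.236, adjusted p = 0.530), with r = 0.206 without the 2 farthest lines.

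In a second family, of all 56 relations between the 8 tested genes, which was added after the values had been seen, none passed either. Cebpb and Cebpd had r = 0.978 in MEF-1 (exact permutation p = 0.00139, adjusted p = 0.0778) and rho = 0.893 (permutation p = 0.0123, adjusted p = 0.230), and r was 0.882 without the 2 farthest lines. In MEF-2 they had r = 0.447 (exact permutation p = 0.305, adjusted p = 0.671) and rho = 0.286 (permutation p = 0.556, adjusted p = 0.708), with r = 0.798 without the 2 farthest lines. Fabp4 and Fabp5 had r = 0.911 in MEF-2 (exact permutation p = 0.00298, adjusted p = 0.0833; rho = 0.893, permutation p = 0.0123, adjusted p = 0.230), which became 0.574 without the 2 farthest lines. In MEF-1 the same pair had r = 0.784 (exact permutation p = 0.0355, adjusted p = 0.331; rho = 0.786, permutation p = 0.0480, adjusted p = 0.538), and 0.794 without the 2 farthest. Thus Fabp4 and Fabp5 differed in opposite directions between the sets, while within each set their r was above 0.

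The members were also set beside the genes around them on the chromosome. For each member and line the median was taken over the protein-coding genes that start within 10 Mb and have an average above the 40th percentile, relative to the 14 clonal lines. The 130 neighbours of Pparg had a median of -0.23 in MEF-1 line 6, the clone with the least Pparg of its set, and between 0.044 and 0.14 in the other 6 MEF-1 clones. The 31 neighbours of Fabp5 had -0.30 in MEF-1 line 4 and -0.26 in line 5, where Fabp5 was 10.09 and 10.31, then -0.15 in line 1, where it was 10.25. Line 5 and line 4 were also the lowest of MEF-1 for Fabp4, at 7.55 and 7.95. Cebpb was lowest of MEF-2 in line 3, the line in which its 140 neighbours had their lowest median of -0.26.

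Lpl, Cebpa, Cebpb and Cebpd in MEF-1 did not follow their neighbours in this way. Cebpb and Cebpd were lowest in MEF-1 line 2, where their neighbours had their highest medians of the set, 0.11 and 0.022. The neighbours of Lpl were lowest in MEF-1 line 1, at -0.19, where Lpl itself was highest, and those of Cebpa were lowest in MEF-1 line 3, at -0.17, where Cebpa was 7.92, the second highest value. In all, the line with the lowest neighbours was the lowest line of the gene itself for 2 of 8 members in MEF-1 and 4 of 8 in MEF-2. The same held for 27.5% and 19.6% of all genes with enough neighbours. With the median of the neighbours taken away, a step added after the values had been seen, the differences between the sets were -3.70 for Pparg (adjusted p = 2.16e-08), -1.57 for Fabp4 (adjusted p = 0.00035) and 0.62 for Fabp5 (adjusted p = 0.0344). The SD of Pparg in MEF-1 was then 0.45 in place of 0.55, and that of Fabp5 0.58 in place of 0.69. The MEF-1 SDs of Fabp4 and Plin2 also fell, from 0.73 to 0.63 and from 0.31 to 0.27. Those of Cebpa, Cebpb, Cebpd and Lpl rose, from 0.25, 0.48, 0.65 and 1.42 to 0.29, 0.51, 0.68 and 1.45. Copy number was not measured in these files, and its part in these values was not tested.

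**Figure D4:**
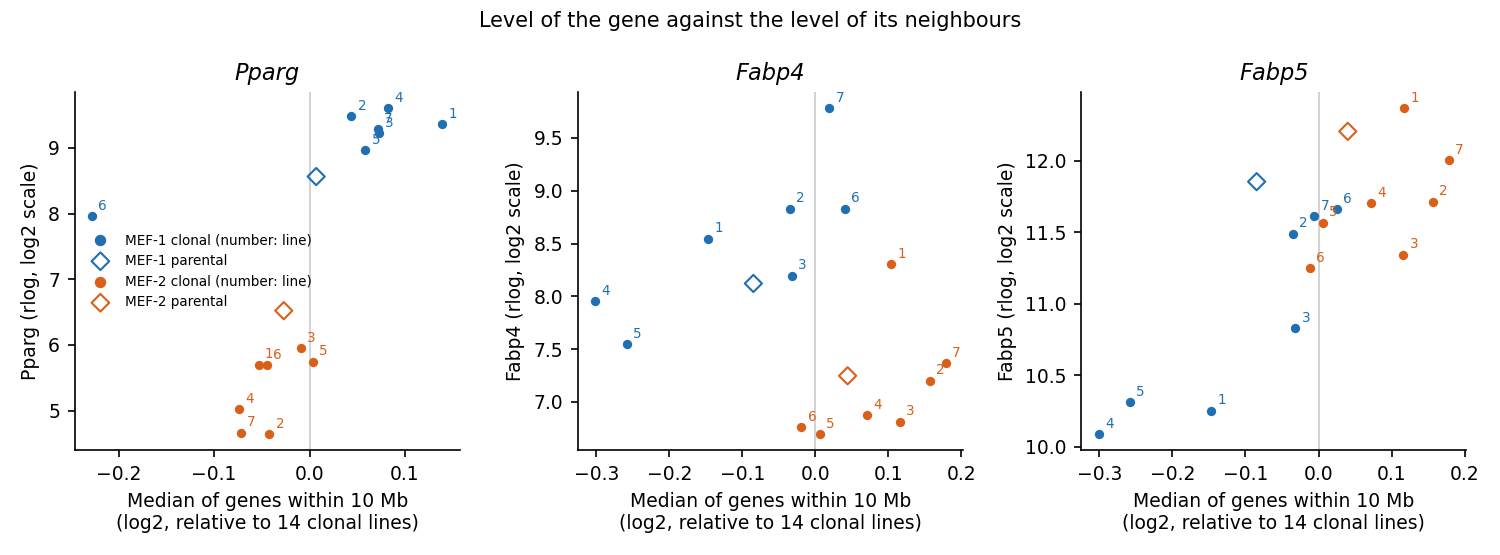
Level of Pparg, Fabp4 and Fabp5 (rlog, log2 scale) against the median of the genes that start within 10 Mb (log2, relative to the 14 clonal lines), with clonal lines as numbered dots and parental lines as diamonds. MEF-1 line 6 stood apart for the neighbours of Pparg at -0.23, and MEF-1 lines 4 and 5 for those of Fabp4 and Fabp5 at -0.30 and -0.26.

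The genes most like Pparg, by Pearson's r over 14 clonal lines after the mean of each set had been taken away, were Etnk1 (0.938), Etfbkmt (0.924), Lrp3 (0.913), Ing4 (0.911) and Vhl (0.904). Etnk1, Etfbkmt, Ing4 and Vhl also lie on chromosome 6, at 27.8, 33.8, 9.68 and 1.74 Mb from Pparg. Without MEF-1 line 6 their r with Pparg was 0.932, 0.886, 0.864 and 0.834, and that of Lrp3, which lies on chromosome 7, was 0.881. For Lpl, the member with the largest pooled SD within sets (1.01), the most similar genes were Odf3 (0.952), Selenbp2 (0.925), Srgn (0.909), Cdkl1 (0.908) and Prlr (0.897), each on another chromosome than Lpl. These values were chosen as the highest among all genes tested and are descriptions.

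Clonal lines were also set against the parental line they came from, which had 1 library and was assumed to vary as the clones do. None of the 8 members was called in either set or for the difference between the sets with limma over 4 groups, beside 0.137% of genes in MEF-1, 0.582% in MEF-2 and 0.275% for the difference. At an unadjusted p under 0.05 there were 0 members in MEF-1, 1 in MEF-2 and 2 for the difference. Cebpa lay above its parental line in all 7 MEF-1 clones, with a difference of 0.50 (SE 0.36, adjusted p = 0.487), and below it in all 7 MEF-2 clones, with -1.20 (SE 0.36, adjusted p = 0.264). Pparg lay above in 6 of 7 MEF-1 clones, by 0.56 (SE 0.55, adjusted p = 0.625), and below in all 7 MEF-2 clones, by -1.18 (SE 0.55, adjusted p = 0.630). Fabp5 lay below its parental line in all 7 MEF-1 clones, by -0.96 (SE 0.54, adjusted p = 0.370), and in 6 of 7 MEF-2 clones, by -0.50 (SE 0.54, adjusted p = 0.914). The parental line was outside the range of its clones for Cebpa and Fabp5 in MEF-1 and for Pparg and Cebpa in MEF-2, so for 2 of 8 members in each set, beside 40.9% and 34.2% of all genes tested.

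Regulators that promote fat cell formation were next counted between the sets of clonal lines. Of 17 tested, 10 were higher in MEF-1, 1 was higher in MEF-2 and 6 were not called, with a median difference of -0.61, beside 28.6%, 27.5% and a median of -0.0043 over all genes tested. Ppargc1a, a coactivator of PPARγ, was higher in MEF-1 by a difference of -4.40 (means 9.09 ± 0.77 and 4.69 ± 0.38, SE 0.30, adjusted p = 2.09e-08). Klf15 differed by -3.30 (SE 0.27), Ebf2 by -2.40 (SE 0.41), Nr1h3, the oxysterol receptor LXRα, by -1.32 (SE 0.37) and Ebf1 by -1.03 (SE 0.32), all with adjusted p under 0.05. Prdm16, a regulator of brown fat, was higher in MEF-2 by 0.69 (SE 0.14, adjusted p = 0.000792). The receptor partner Rxra was among those higher in MEF-1, by -0.92 (SE 0.088), and was singled out after its value was seen.

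Regulators that oppose fat cell formation were counted in the same way. Of 12 tested, 7 were higher in MEF-1, 2 were higher in MEF-2 and 3 were not called, with a median of -0.42. Thus 9 of 12 were called, beside 56.1% of all genes tested (28.6% higher in MEF-1 and 27.5% higher in MEF-2). Wnt10b, a Wnt ligand that holds back fat cell formation, differed by -2.45 (SE 0.27, adjusted p = 3.06e-06), Gata2 by -2.12 (SE 0.076) and Dlk1, the preadipocyte factor Pref-1, by -1.75 (SE 0.25). Hes1, a target of Notch, was higher in MEF-2 by 0.80 (SE 0.23, adjusted p = 0.0077). Dlk1 lies on chromosome 12, which with chromosomes 18 and 19 is known to be aneuploid in some of these lines, and none of the 10 adipogenic genes lies on these 3 chromosomes. Other called genes of the lists lie there too. They are Lpin1 on chromosome 12, Nr3c1, Zfp521, Cidea and Csf1r on 18, and Gpam, Bscl2, Vldlr and Rbp4 on 19. Csf1r was higher in MEF-2 and the others in MEF-1, and the part of gene dosage in these calls was not tested.

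**Figure D5:**
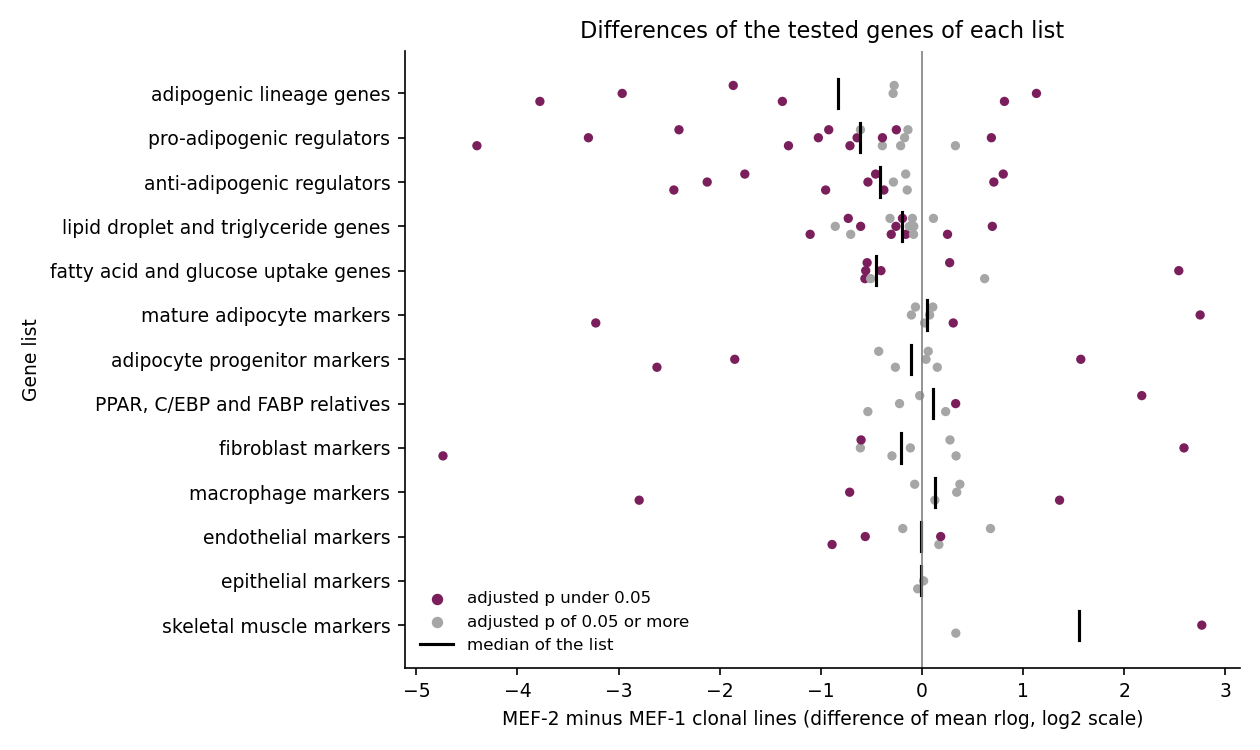
Difference of the mean rlog (MEF-2 minus MEF-1 clonal lines, log2 scale) of every tested gene in 13 lists, with genes called at adjusted p under 0.05 in purple, others in grey, and the median of each list as a black bar. The medians of the pro-adipogenic and anti-adipogenic regulators, at -0.61 and -0.42, lay on the same side of 0.

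Genes that build or break down stored fat were closer to 0. Of 19 lipid droplet and triglyceride genes 17 were tested, 7 were higher in MEF-1, 2 were higher in MEF-2 and 8 were not called, with a median of -0.19. That made 9 of 17 called, a share near the 56.1% of all genes tested. G0s2, an inhibitor of fat breakdown, differed by -1.11 (SE 0.31, adjusted p = 0.00667), whereas Pnpla2, the lipase that G0s2 inhibits, was higher in MEF-2 by 0.69 (SE 0.084, adjusted p = 7.18e-06). Plin1, the droplet coat of mature fat cells, was low, with means of 1.18 and 1.08, and Plin5 and Cidec had averages below 0. Of 9 genes of fatty acid and glucose uptake 8 were tested, with 4 higher in MEF-1 and 2 in MEF-2 (median -0.46). In this list 6 of 8 were called, beside the same 56.1%. The lipoprotein receptor Vldlr differed by -0.56 (SE 0.18, adjusted p = 0.0133), and the insulin-responsive glucose transporter Slc2a4 was higher in MEF-2 by 2.54 (SE 0.26, adjusted p = 1.38e-06). Gpihbp1, the anchor of Lpl on capillaries, is listed at 0 in all lines.

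Markers of the mature fat cell were counted to check the lineage. Of 12, 8 were tested, 1 was higher in MEF-1 and 2 were higher in MEF-2 (median 0.050), and Lep, Cfd, Ucp1 and Pck1 had averages of 0 or lower. Rbp4, a retinol carrier, differed by -3.23 (SE 0.43, adjusted p = 1.8e-05). The adrenergic receptor Adrb3 was higher in MEF-2 by 2.75 (SE 0.31, adjusted p = 3.13e-06), and Adipor2 by 0.31 (SE 0.058). Of 8 adipocyte progenitor markers 2 were higher in MEF-1, 1 was higher in MEF-2 and 5 were not called (median -0.11). Here too 3 of 8 were called, beside 56.1% of all genes tested. Ly6a, the antigen Sca-1, differed by -2.62 (SE 0.33) and Pdgfra by -1.85 (SE 0.29), whereas Cd24a was higher in MEF-2 by 1.57 (SE 0.28).

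Markers of other cell types were examined in the same fit. Their counts of called genes stand beside 56.1% of all genes tested. All 8 fibroblast markers were tested, and their summed level on the log2 scale was 22.22 to 22.71 in MEF-1 clones and 22.04 to 22.75 in MEF-2 clones. Summed levels were not corrected for length and mainly follow the genes of a list with the highest values. Dcn, a proteoglycan of connective tissue, differed by -4.74 (SE 0.36), and Thy1 was higher in MEF-2 by 2.59 (SE 0.66), with 3 of 8 called in all. Of 8 macrophage markers, which matter here since macrophages hold Fabp4, Lpl and Cd36, 7 were tested and 3 were called, with a summed level of 9.90 to 10.90 in MEF-1 and 9.69 to 10.18 in MEF-2. The highest levels in that sum were those of Mertk (means 9.76 and 9.04) and Cd14 (7.80 and 7.93), so it is no level shared by the list. Lyz2 was higher in MEF-1 by a difference of -2.80 (SE 0.32) and Csf1r was higher in MEF-2 by 1.36 (SE 0.37), while Ptprc, the pan-leukocyte marker, had means of 1.89 and 2.27 and Adgre1 had an average below 0. Macrophage markers called were 5 without MEF-2 line 3, and also with quantile normalisation or with the parental lines added. Of 8 endothelial markers, 6 were tested, with a summed level of 5.46 to 6.59 in MEF-1 and 5.37 to 6.94 in MEF-2. Kdr differed by -0.89 (SE 0.23) and Emcn by 0.18 (SE 0.072), 3 were called in all, all with averages under the 40th percentile, so that a stricter filter left 0 called, Tie1 had an average below 0 and Cldn5 was at 0. The part of such cells in the levels of Fabp4, Lpl and Cd36 was not tested. Of 6 epithelial markers 2 were tested and 0 called by limma, also 0 at an unadjusted p under 0.05, and of 6 skeletal muscle markers 2 were tested and Acta1 was higher in MEF-2 by 2.77 (SE 0.51).

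Relatives of the members were counted last. Of 12 genes listed under PPAR, C/EBP and fatty acid binding protein relatives 6 were tested, 0 were higher in MEF-1, 2 were higher in MEF-2 and 4 were not called (median 0.11). Calls were thus 2 of 6, beside 56.1% of all genes tested. Pmp2, described above, was 1 of the called genes. The other, Cebpz, which shares the C/EBP name but not the family, differed by 0.33 (SE 0.058). The other PPAR receptors were not called, with differences of -0.22 for Ppara (SE 0.22, adjusted p = 0.403) and -0.023 for Ppard (SE 0.060, adjusted p = 0.764). Pparg, at -3.78, was the PPAR gene that passed the test.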

How the data were processed

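Total RNA was depleted of ribosomal RNA and sequenced as directional libraries, 1 for each of 16 lines. Reads were trimmed with Trim Galore 0.6.0 and quantified with Salmon 1.5.2 against mm10. The authors deposited log2 values, made with the rlog transformation of DESeq2 1.24.0, which divides counts by size factors and draws the lines of a gene together. The step from transcripts to genes and the design given to the transformation are not given in the sources used here. Read numbers per line are unknown, so that no counting interval can be given, and none of the 16 columns of values repeats another.

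Groups came from the sample labels. Identifiers were matched to GENCODE mouse release M21 (GRCm38/mm10) for 54200 of 54453 genes. Protein-coding genes with an average above 0 (15285) were fitted with limma 3.58.1 (trended variance prior, R 4.3.3), 7 against 7 clonal lines, and over 4 groups for clonal minus parental lines, with Benjamini-Hochberg adjustment over all genes tested and a threshold of 0.05. No pseudocount was added, and scripts were tested on simulated data. Correlations and the difference of Fabp4 and Fabp5 used exact permutation tests over lines (scipy 1.17.1). Expression groups were bounded at an average of 0 and at the 40th, 60th and 80th percentiles of protein-coding genes.

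The 10 genes, the lists and the tests were chosen with earlier results of these data known. Named were all 10 genes, from each list the called gene with the largest difference in each direction and any called with a difference of 1 or more, the 5 genes most like Pparg and Lpl, the neighbours of the Fabp4 and Fabp5 locus, and defining markers at or near the lowest averages of the table. The genes Rxra, Ppara, Ppard, Plin1, Plin5, Cidec, Cebpz, Ptprc, Fasn, Acaca, Scd1, Adipor1, Adipor2 and Retn were named after their values were seen. Alternatives were another filter, prior or scaling, added parental lines, a replicate block and leaving out each clonal line. Promoter windows came from RefSeq (GRCm38.p6), and 6 of 10 genes matched.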

Additional observations from a re-analysis of the deposited data

Results flagged for a closer look

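For 7 of 20 sets of 7 clonal lines (10 genes in 2 sets), the highest or lowest line stood apart by Dixon's criterion. About 1 in 20 would hold for independent values from a normal distribution. The genes share their lines and are not independent, and the share over all genes tested was not computed. No excess is therefore read from this count. Among the regulators, Pparg was 7.96 in MEF-1 line 6, with the next lowest line at 8.97. Cebpb was 9.81 in MEF-1 line 2, with the next lowest at 10.74, and Cebpd was 10.50 in the same line, with the next lowest at 11.61. Fabp4 was 8.30 in MEF-2 line 1, with the next highest line at 7.37. For the genes below 0, Cd36 was -1.69 in MEF-2 line 5 against -1.75 in the next line, and Adipoq was -2.06 in MEF-1 line 6 and -2.06 in MEF-2 line 7 against -2.10 in the next line of each set. The ranges of Cd36 and Adipoq in these sets were under 0.1, so that these 3 lines differ from the rest by very little on the log2 scale.

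The sign of clonal minus parental Cebpa differed between MEF-1 and MEF-2. All 7 MEF-1 clones lay above and all 7 MEF-2 clones below their parental line, and the difference between the sets was -1.70 (limma, SE 0.50, unadjusted p = 0.0043, adjusted p = 0.344), so that it did not pass the adjustment over all genes. Each parental line had 1 library.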

How the results depend on the processing

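Under the alternatives, 197 of 199 values of the members' differences between the sets kept their direction and their side of the threshold, and the exceptions were Cebpb and Cebpd without MEF-1 line 2 (-0.44 and -0.50). Leaving out 1 clonal line at a time, Cebpb ranged from -0.44 to -0.17 and Cebpd from -0.50 to -0.18. The median of all genes shifted by under 0.1 with every scaling. Clone numbers only name lines: with the number as a replicate block 8226 genes were called in place of 8573, 6 of 8 members were called as before, and the deviations of same-numbered clones had correlations of -0.13 to 0.20, with 1 of 7 MEF-1 lines closest to its own number. Lpl gave no value above the 40th percentile of the average. Values near 0 changed sign without any call: MEF-1 clonal minus parental Cebpb (-0.011) became 0.0086 with lines centred and ran from -0.089 to 0.157 with a clone left out, positive without line 2 or 4 (0.0019), its difference between the sets (0.099) ran from -0.069 (without MEF-1 line 2) to 0.207, and r of Pparg with Adipoq in MEF-2 (-0.563) became 0.637 with lines centred. The cause of these changes, and of those of Cebpb and Cebpd, was not tested. Of 300 counts of genes called in the other lists, 294 stayed within 1.5 times, and the others were macrophage markers (5 in place of 3 under 3 alternatives), endothelial markers (0 in place of 3 with the 40th percentile as filter), progenitor markers (5 in place of 3 with the neighbours taken away) and muscle markers (2 in place of 1 with quantile normalisation). Without read numbers, a low level of Lpl, Cd36 or Adipoq cannot be told from absence.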
